A study of Leucoraja erinaceus with 4 samples.

Results

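The subject here is a set of 178 assembled features of the little skate, Leucoraja erinaceus, whose RNA was much higher at stage 33 than at stage 28 in both regions of the axial skeleton and at similar levels in the 2 regions. RNA was sequenced from the synarcual, cartilage of the anterior vertebral column that is fused into a single piece, and from the post-synarcual, the axial skeleton behind it, at 2 embryonic stages. The 4 groups are the stage 28 synarcual, the stage 28 post-synarcual, the stage 33 synarcual and the stage 33 post-synarcual, with 1 library each and no treatment or genotype in the labels. The donors were males, and the protocol leaves unclear whether 2 animals were used in all or 2 at each stage. The central nervous system and axial muscle were removed before freezing, so all 4 groups share that dissection, and other tissues attached to the skeleton may remain.

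The members were chosen by measured values. A feature was taken when its largest count in any library was at least 200, when its mean log2 rise from stage 28 to stage 33 over both regions was at least 2, a 4-fold change, and when its log2 region difference lay between -1 and 1 at both stages, within 2-fold. Levels are log2 CPM, a count relative to library size, after trimmed-mean (TMM) scaling. Of 23105 features in the series, 5314 reached the minimum count, and 530 of these, 9.97%, rose at least 4-fold on average and are called late-high. The members are 178 of the 530 late-high features, or 33.6%. Among all 5314 features, 4451 (83.8%) had regions within 2-fold of each other at both stages. Because the rule used the stage and the region contrasts of all 4 libraries, the values below describe the members and no test was made of them.

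Skeletal cartilage is laid down by chondrocytes, cells that secrete a matrix of collagen fibrils and proteoglycans and keep making it as the tissue grows. In cartilaginous fishes the skeleton stays cartilage for life, and its surface later mineralizes in small tiles called tesserae. Genes for matrix proteins and for the cell types that surround growing cartilage are among those known to be switched on as cartilage matures. The files give no gene name for any member, and a search of all 23105 identifiers in the species' RefSeq table found 0 matches. The members therefore go by assembly identifier, without a function, and the labelled tissue could not be checked against its markers.

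Total counts ran from 3922525 to 5092346 per library. With 1 library per group there is no replicate error, and every interval below is a 95% Clopper-Pearson interval that covers counting error only. The labels and headers do not say if pairs or single reads were counted, and in the latter case the intervals would be too narrow. A library with no count of a feature may still hide up to 3, the floor used here, which is 0.521 to 0.986 CPM. In bulk tissue, more cells of a type and more RNA per cell cannot be told apart, and neither can stage and animal.

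The members went from a small to a large part of the RNA. At stage 28 they took 2.10% of the synarcual library (2.09 to 2.11) and 3.30% of the post-synarcual library (3.29 to 3.32), by counts. At stage 33 the shares were 15.6% (15.5 to 15.6) and 14.3% (14.298 to 14.359). Both stage 33 values lie above both stage 28 values. The order of the regions at stage 33 rests on the scaling: relative to the TMM effective library sizes the members' sums were 1.52% and 2.30% at stage 28 and 18.8% and 23.99% at stage 33, lower in the synarcual at both stages. Among the 100 features with most counts in a library, 3 and 4 were members at stage 28 in the synarcual and post-synarcual, against 20 and 18 at stage 33. The members were chosen for a rise, so the rule favours the direction of these changes. Per length, in TPM, a count relative to both feature length and library, they held 0.774% and 1.19% at stage 28 and 9.42% and 7.45% at stage 33. For the 352 other late-high features the stage 33 shares by counts were 27.7% in the synarcual library and 41.1% in the post-synarcual library. In TPM they were 22.4% and 38.3%.

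The members' median level at stage 28 was 14.2 CPM for the synarcual and 14.5 CPM for the post-synarcual. At stage 33 it was 141 CPM and 156 CPM. The lower and upper quartiles of the synarcual levels were 6.996 and 27.4 CPM at stage 28 and 84.1 and 284 CPM at stage 33. For the post-synarcual the same ranges were 6.57 to 36.3 and 86.8 to 311 CPM. No member was at 0 at stage 33, where the lowest count was 91, and 7 were at 0 in at least 1 stage 28 library.

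**Figure D1:**
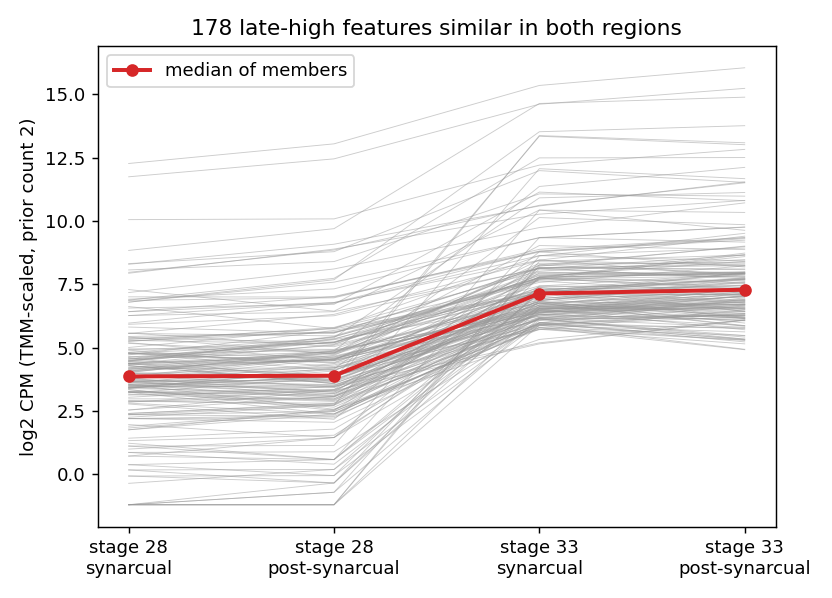
Log2 CPM (vertical axis, TMM-scaled, prior count 2) of each of the 178 members, 1 grey line each, in the 4 libraries on the horizontal axis, with the median of the members in red. The median is 3.87 and 3.90 in the stage 28 libraries and 7.14 and 7.29 in the stage 33 libraries. Lines differ far more in height than in shape within a stage, which the region limits of the rule fixed in advance.

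With TMM scaling the rise was of about the same size in both regions, as the limits of the rule require to within 4-fold. The median log2 rise was 2.93 for the synarcual and 2.87 for the post-synarcual, folds of 7.64 and 7.32. With members at 0 at stage 28 set to their lower bound, the medians were 2.93 and 2.87. This near equality rests on the scaling. For the same members the median log2 region difference was -0.22 at stage 28 and 0.33 at stage 33 with total counts. With TPM it was -0.29 and 0.36, so both scalings put the larger rise in the synarcual. A rise of at least 4-fold was reached by 166 members in the synarcual, 164 in the post-synarcual and 152 in both. Over all 5314 features with the minimum count these shares were 10.5%, 9.86% and 8.37%, against medians of -0.109 and -0.00725 on the log2 scale, and nothing is read from the difference since the rule chose the members on this contrast. The unscaled counts themselves were higher at stage 33 than at stage 28 in both regions for all 178 members. The limits of the rule, with the scaling factors used, already require this.

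The size of the rise varied widely among members. A mean log2 rise from 2 to 3 was found in 90 members, from 3 to 4 in 39, from 4 to 6 in 24, and of at least 6, which is 64-fold, in 25. That last group is 14.04% of the members, against 15.6% of the other late-high features and 1.51% of all features with the minimum count. The bands lay further apart at stage 28 than at stage 33. They are cut on the rise itself, and the minimum count bounds levels from below at stage 33 only, so the rule favours this pattern. The median stage 28 synarcual level was 22.2 CPM in the lowest band and 0.869 CPM in the highest, and the median stage 33 synarcual level was 129 and 297 CPM. In the post-synarcual the medians of the same 2 bands were 27.8 and 0.710 CPM at stage 28 and 150.1 and 245 CPM at stage 33.

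**Figure D2:**
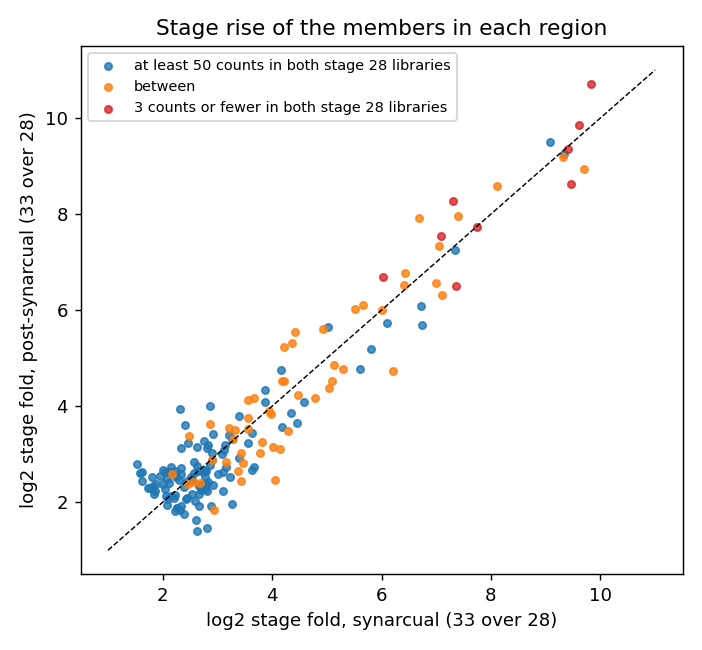
Log2 stage fold (33 over 28) of each member in the synarcual (horizontal axis) and the post-synarcual (vertical axis), coloured by stage 28 count, with a dashed line of equal rise. The rule keeps points within 2 log2 units of the line, and the largest rises belong mostly to members with few stage 28 counts.

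The 2 largest mean rises were those of features without a count at stage 28. TRINITY_DN41769_c0_g1, a feature of 2402 bp, had 0 counts in both stage 28 libraries, with 1536 and 2226 in the stage 33 synarcual and post-synarcual. Against the floor of 3 counts per library it was at least 755-fold higher at stage 33 in the synarcual, and at least 1374-fold in the post-synarcual. The exact 95% lower limits of these ratios were 614 and 1116. TRINITY_DN38210_c2_g6 (847 bp) had 0 and 0 counts at stage 28, with 1329 and 1227 at stage 33. It was at least 654-fold and at least 757-fold higher by the same floor, with exact 95% lower limits of 531 and 615. Both features were undetected in either region at stage 28 and detected in both at stage 33, and the second shares its assembly component with 2 other features, both of them late-high but not members. In all, 4 members had 0 counts in both stage 28 libraries and 9 had 3 or fewer in each. Such low counts in each were also found for 13 of the 352 other late-high features, and for 22 of all 5314 with the minimum count.

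At least 50 counts in both stage 28 libraries were found for 115 members, of which 5 rose at least 64-fold. The same depth was found for 144 of the 352 other late-high features and for 5007 of all 5314 with the minimum count. TRINITY_DN45262_c1_g2 (6686 bp), with the smallest mean log2 rise of 2.01, had 228 synarcual counts at stage 28 against 561 at stage 33, and 300 post-synarcual counts against 731. It was 3.63-fold higher at stage 33 in the synarcual (3.11 to 4.25) and 4.51-fold higher in the post-synarcual (3.94 to 5.18). TRINITY_DN40089_c0_g3 (2908 bp), next to it, had 74 and 63 counts at stage 28 and 216 and 135 at stage 33. Its rises were 4.31-fold (3.29 to 5.69) and 3.97-fold (2.92 to 5.44). For features near the lower limit of the rise, the minimum count of the rule favours such stage 28 counts, though it does not require 50 in both libraries. The member TRINITY_DN40239_c1_g1, with a mean log2 rise of 2.38, had 65 and 31.

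Values at the limits of the rule show how close it runs. The feature just under the limit of the rise, TRINITY_DN36033_c0_g1, had a mean log2 rise of 1.99. At stage 28 the region limits fell between -0.96 in the lowest member and -1.01 in the nearest feature outside, and between 0.98 and 1.17 on the upper side. At stage 33 they fell between -0.99 and -1.02 on the lower side and between 0.9536 and 1.0005 on the upper side. The smallest largest count of a member was 205, and the nearest feature left out had 197.

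Abundance was concentrated in few members. The 6 with the highest mean TPM at stage 33 held 66.6% of the members' counts in the synarcual at stage 33 (59.1% at stage 28) and 69.9% of those in the post-synarcual (65.8% at stage 28). Without them the other 172 members went from 0.860% and 1.13% of counts at stage 28 to 5.204% and 4.31% at stage 33. Each of the 172 was chosen for a rise, so this is a description and no separate result. Seen after their values were known, the 6 make 3 pairs of similar profile, and each pair started from another stage 28 level.

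The first pair was already abundant at stage 28. TRINITY_DN34122_c0_g1 (6295 bp) had 1449 TPM in the stage 28 synarcual, 2714 in the post-synarcual, and 9349 and 10701 TPM at stage 33. TRINITY_DN35388_c0_g1 (5145 bp) had 1240 and 2218 TPM at stage 28 and 6900 and 7510 TPM at stage 33. They had the highest mean TPM of all members at stage 28, and both were lower in the synarcual at both stages. Counts of TRINITY_DN34122_c0_g1 were 28454 and 47672 at stage 28 and 163086 and 206274 at stage 33, a rise of 8.46-fold in the synarcual (8.35 to 8.56) and 8.01-fold in the post-synarcual (7.93 to 8.09). Its TMM-scaled level in the synarcual was 0.584 of that in the post-synarcual at stage 28 (0.576 to 0.593) and 0.617 at stage 33 (0.613 to 0.621). For TRINITY_DN35388_c0_g1 these ratios were 0.612 (0.601 to 0.623) and 0.648 (0.643 to 0.654), and its rises were 7.29-fold (7.18 to 7.40) and 6.88-fold (6.79 to 6.97). The size of these rises rests on the scaling, which the intervals do not cover. The mean log2 rise of TRINITY_DN34122_c0_g1 was 3.04 with TMM, 2.04 with total counts and 2.33 with TPM. For TRINITY_DN35388_c0_g1 it was 2.82, 1.82 and 2.12, so with total counts it fell below the limit of the rule. The ratio of the 2 features in TPM was 1.17, 1.22, 1.35 and 1.42 over the 4 libraries in the order given.

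The second pair was at a middle level at stage 28. TRINITY_DN33035_c0_g1 (5721 bp on average over its 2 transcripts) had 149 and 293 TPM at stage 28 and 6308 and 5289 TPM at stage 33. TRINITY_DN41670_c1_g1 (3324 bp) had 63.3 and 128 TPM at stage 28 and 5143 and 4279 TPM at stage 33. Both were lower in the synarcual at stage 28, with log2 region differences of -0.86 and -0.88 in TMM-scaled CPM. At stage 33 the differences were -0.25 and -0.24 with that scaling and 0.25 and 0.27 as log2(TPM + 0.5), so their stage 33 direction flips with the scaling. Their rises were unequal, at 55.7-fold (53.6 to 58.0) and 106-fold (98.3 to 115) in the synarcual and 36.5-fold (35.4 to 37.6) and 67.8-fold (63.99 to 72.0) in the post-synarcual, so that their TPM ratio went from 2.35 and 2.29 to 1.23 and 1.24.

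The third pair was low at stage 28. TRINITY_DN35080_c0_g1 (1209 bp on average over 2 transcripts) had 27.1 and 25.5 TPM at stage 28 and 14266 and 7879 TPM at stage 33, and was the most abundant member at stage 33 by mean TPM. TRINITY_DN34071_c0_g1 (1431 bp) had 27.8 and 18.3 TPM at stage 28 and 11757 and 6782 TPM at stage 33. These were the highest levels of any member in the stage 33 synarcual. Their counts at stage 28 were 91 and 74 for the first and 111 and 65 for the second. The first rose 659-fold in the synarcual (537 to 819) and 630-fold in the post-synarcual (501 to 802). The second rose 550.0-fold (457 to 669) and 755-fold (592 to 979). Unlike the first pair, their TMM-scaled levels at stage 33 were higher in the synarcual, by 1.26-fold (1.24 to 1.28) and 1.22-fold (1.20 to 1.24).

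**Figure D3:**
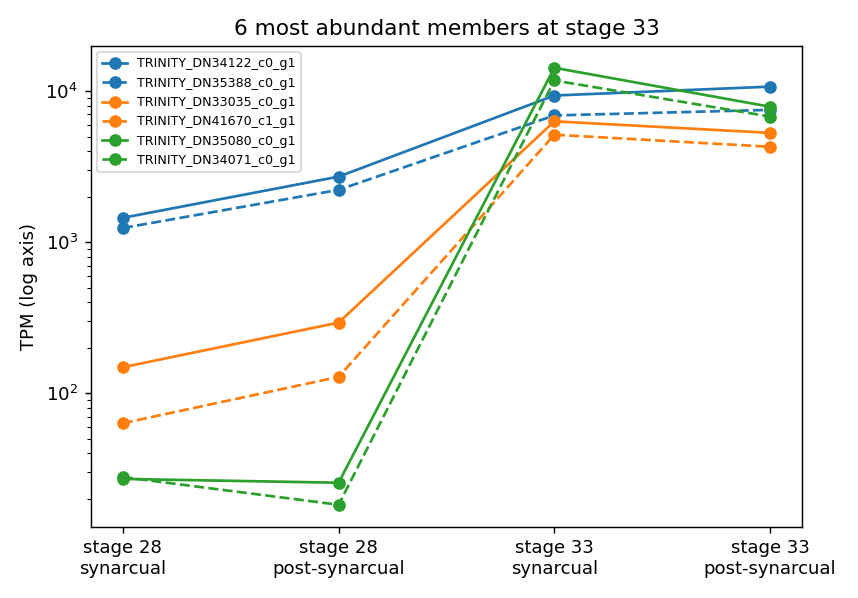
TPM (vertical log axis) of the 6 most abundant members at stage 33 in the 4 libraries (horizontal axis), with the 2 members of a pair in one colour, solid and dashed. Lines of one colour run close together. The pairs lie apart at stage 28, with mean TPM of 2081 and 1729, 221 and 95.7, and 26.3 and 23.0. At stage 33 the 6 lie between 4279 and 14266 TPM, a narrower range that follows in part from their choice by stage 33 TPM.

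Within the limits of the rule, the members leaned to the post-synarcual side with TMM scaling. The median log2 region difference was -0.16 at stage 28 and -0.14 at stage 33. At stage 28, 110 of the 178 were lower in the synarcual, against 45.6% of all features with the minimum count. At stage 33, 106 were lower, against 53.9%, and 75 were lower at both stages, against 30.0%. The stage 33 direction rests on the scaling, since scaling to total counts turned the median of the same members at stage 33 to 0.33 and TPM turned it to 0.36. The same scalings placed the median stage 33 difference of the 14668 features used for scaling at 0.45 and 0.48, against 0.0042 with TMM. The members' medians lay below 0.45 and 0.48. Since TMM centres those features near 0, this restates the TMM result and is no separate check. With TMM scaling the late-high features as a whole also lay on the post-synarcual side, with medians of -0.62 and -0.52 at stages 28 and 33. Those outside the region limits had -1.16 and -1.24. The limits bound the members' differences and left the others out for theirs, so the sizes cannot be compared.

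How well the regions were matched depended on depth. The 95% counting interval of the region ratio lay wholly inside 2-fold for 93 members at stage 28, for 148 at stage 33 and for 73 at both, against 82.5%, 77.8% and 70.9% of all features with the minimum count. The interval included equality for 95 members at stage 28 and 39 at stage 33. It lay clear of equality for 79 members at stage 28, with 55 lower and 24 higher in the synarcual, against 26.0% and 32.7% of all features with the minimum count. At stage 33 it was clear for 139, with 83 lower and 56 higher, against 28.1% and 23.1%. With total counts the stage 33 split was 34 lower and 104 higher, so its direction rests on the scaling. Intervals clear of equality in opposite directions at the 2 stages were found for 9 members lower in the synarcual at stage 28 and higher at stage 33, against 3.03% of all features with the minimum count, and for 4 members with the reverse, against 6.21%. For the other 4 members stage 28 gave no ratio, because both counts were 0. Among the 25 members that rose at least 64-fold, the stage 28 interval lay inside 2-fold for 1, against 66 of the 90 members with a log2 rise under 3. At stage 33 the numbers were 24 of 25 and 72 of 90. For nearly all strongly rising members, then, the counts sufficed to place the region ratio within 2-fold at stage 33 but not at stage 28. The rule itself required ratios within 2-fold, so this describes depth and is no evidence that the regions were alike.

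The members with the closest regions illustrate both cases. TRINITY_DN39429_c0_g1 (1747 bp) had 24 counts in each stage 28 library, with 276 in the synarcual at stage 33 and 213 in the post-synarcual. Its region ratio was 0.979 at stage 28 (0.532 to 1.80) and 1.01 at stage 33 (0.842 to 1.21). TRINITY_DN33845_c1_g1, a short feature of 337 bp, had 0 counts in both stage 28 libraries and 364 and 282 at stage 33, where its ratio was 1.01 (0.860 to 1.18). The stage 28 counts of both features leave the ratio there wide or without a value. At stage 33 their regions matched with TMM scaling, and with TPM their differences were 0.52 and 0.59 log2.

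**Figure D4:**
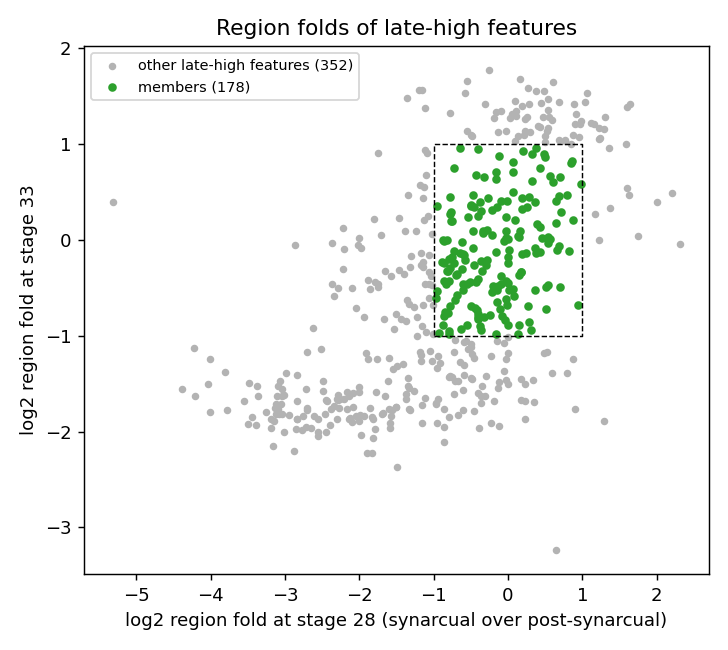
Log2 region difference (synarcual over post-synarcual) at stage 28 (horizontal axis) and stage 33 (vertical axis) of the 530 late-high features, with the 178 members in green inside the dashed limits of the rule and the other 352 in grey. The members fill the square, with more of them below and to the left of its centre than above and to the right.

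For a few members the rise was larger in one region. It was at least 2-fold larger in the synarcual in 8 members (4.49%) and at least 2-fold larger in the post-synarcual in 9 (5.06%), against 6.06% and 4.78% of all features with the minimum count. This balance rests on TMM scaling, since the rule gave 22 and 4 such members with total counts and 26 and 3 with TPM. The rule holds the difference in rise within 2 log2 units for members only, so their shares cannot be compared with those of all features. The difference was under 0.5 log2 for 103 members. TRINITY_DN36133_c1_g1 (3374 bp) had 18 and 29 counts at stage 28 and 230 and 92 at stage 33, a rise of 18.9-fold in the synarcual (11.7 to 32.4) and 5.87-fold in the post-synarcual (3.83 to 9.25). TRINITY_DN32975_c0_g1 (1070 bp) had 7 and 13 counts at stage 28 and 478 and 222 at stage 33, rises of 101-fold (48.5 to 252) and 31.6-fold (18.1 to 60.3). With TMM scaling the intervals of the 2 regions do not overlap for the first feature and do for the second. Total counts move the rises of the 2 regions further apart for both.

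In the other direction, TRINITY_DN35899_c0_g1 (2016 bp) had 138 and 69 counts at stage 28 and 475 and 595 at stage 33. It rose 5.08-fold in the synarcual (4.19 to 6.18) and 15.97-fold in the post-synarcual (12.4 to 20.8). TRINITY_DN42389_c0_g1 (4048 bp) had 68 and 53 counts at stage 28 and 137 and 206 at stage 33, rises of 2.97-fold (2.21 to 4.04) and 7.20-fold (5.30 to 9.93). With TMM scaling the intervals of the 2 regions do not overlap for either feature. Total counts bring the rises of the 2 regions closer together, so the width of the gap between intervals depends on the scaling. Whether the intervals of each feature overlap with total counts was not examined. The difference between regions was not tested.

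Length, transcript number and component sharing were not used by the rule. The members' median length was 2412 bp, with quartiles of 1661 and 3655 bp, against 2257 bp for the other late-high features and 2658 bp for all features with the minimum count. Members in the lowest band of rise had a median length of 2677 bp and those in the highest band 2142 bp. More than 1 transcript was assembled for 44 members (24.7%), against 28.1% of the other late-high features and 27.9% of all with the minimum count. In the highest band of rise it was 9 of 25. A component of the assembly was shared with another feature by 27 members (15.2%), against 17.6% and 12.1%. Counts that were not whole in at least 1 library, a sign of reads divided between features, were found for 15 members, or 8.43%, against 3.01% of all features with the minimum count.

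Components group assembled sequences that overlap, and 7 of the members lay in 3 components, so that the 178 belonged to 174 components. One component held 3 members. TRINITY_DN45316_c0_g1 (4422 bp) had 441, 617, 1743 and 1845 counts in the 4 libraries, stage 28 before stage 33 and synarcual before post-synarcual. TRINITY_DN45316_c0_g8 (418 bp) had 104, 165, 457 and 459. The mean log2 rises of the 3, TRINITY_DN45316_c0_g6 included, were 2.501, 2.508 and 2.523, and they were singled out after their values were seen. Counts of features that share a component are uncertain, since the reads of one gene can be divided among them.

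The mix of transcripts could be followed through the length in the files, which is an average over a feature's transcripts weighted by their abundance. Of the 44 members with several transcripts, 24 changed in length by under 5% between stages in both regions. The length grew by at least 10% in both regions in 5 members (11.4%) and shrank by at least 10% in both in 2 (4.55%), against 5.06% and 4.05% of the 1483 features with several transcripts and the minimum count. Each of these 7 had at least 40 counts in every library. Another 7 passed 10% in 1 region only, and 5 of them had under 50 counts in a stage 28 library. The remaining member past 10% in both regions, TRINITY_DN35833_c0_g2, changed by -17.9% in the synarcual but by 31.8% in the post-synarcual, and had 2 and 4 counts there at stage 28. Between regions of one stage, the length differed by under 5% for 33 of the 44 at stage 28 and for 40 at stage 33. Only same-direction changes of at least 10% were counted over all features. Whether the other counts are usual was not tested.

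TRINITY_DN45709_c0_g1, with 2 transcripts, had the largest loss. Its length was 7612 bp in both stage 28 libraries, 4849 bp in the stage 33 synarcual and 4808 bp in the stage 33 post-synarcual, shorter by 36.3% and 36.8%. Its counts were 132 and 225 at stage 28 and 840 and 1296 at stage 33. TRINITY_DN45846_c0_g2 went from 3024 and 3016 bp to 2601 and 2586 bp. In both features the regions changed alike.

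TRINITY_DN45350_c2_g1, with 2 transcripts, had the largest gain, from 1269 and 1352 bp at stage 28 to 1970 and 1915 bp at stage 33 in the synarcual and post-synarcual. TRINITY_DN44769_c0_g1, with 3 transcripts, went from 7585 and 7667 bp to 9575 and 9920 bp, longer by 26.2% and 29.4%. In both members the weight lay further toward longer transcripts at stage 33 than at stage 28, in both regions. None of these 4 length changes has a replicate check.

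**Figure D5:**
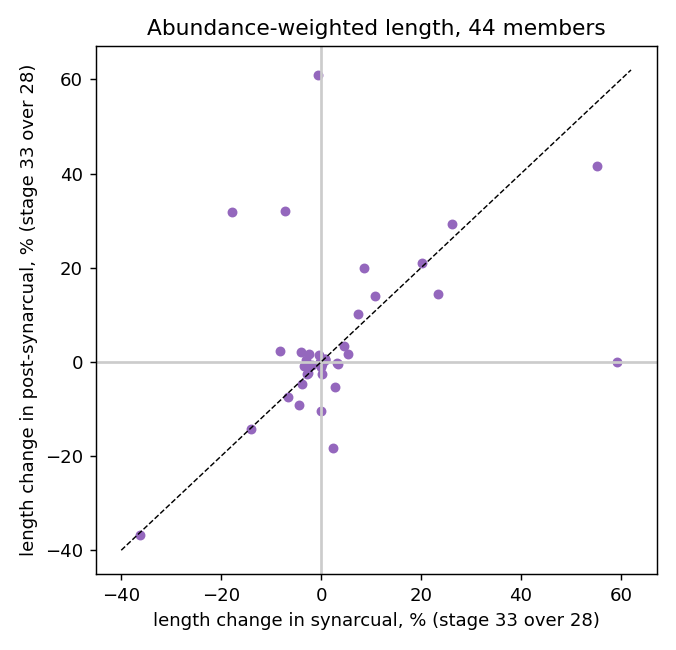
Change of the abundance-weighted length from stage 28 to stage 33 in percent, in the synarcual (horizontal axis) and the post-synarcual (vertical axis), for the 44 members with several transcripts, with a dashed line of equal change. Most points lie near 0, the 7 members changed by at least 10% the same way in both regions lie near the line, and the other points far from 0 changed in 1 region only or, for 1 member, in opposite directions.

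Compared with the late-high features that the region limits left out, the members had the smallest median rise. Their median mean rise was 2.97 log2, against 4.52 for the 131 late-high features at least 2-fold lower in the synarcual at both stages, 3.49 for the 71 lower at stage 33 only, 3.21 for the 71 higher in the stage 33 synarcual and 3.38 for the 79 apart at stage 28 only. At stage 28 the members' median count was 81.5 in each library, and for the 352 others it was 42.5 (synarcual) and 89.5 (post-synarcual). These are descriptions, since one set of values chose all the groups.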

How the data were processed

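Libraries from an unstranded kit were sequenced in a shared lane, per the labels' protocols. The authors deposited estimated (expected) counts, TPM and FPKM per assembled feature, with abundance-weighted lengths, per the file headers. Tools listed by the submitters' processing notes are Bowtie2 and RSEM, without a version or filter. The deposited FPKM values were not used. A deposited table of all libraries holds the same estimated counts (largest difference 0).

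Counts were rounded to whole numbers; 1.66% to 1.89% of values per library were not whole. TMM factors (edgeR 4.0.16, R 4.3.3) rested on 14668 features that reached 10 counts in 2 or more libraries and were 1.39 and 1.44 at stage 28 and 0.831 and 0.599 at stage 33 in the synarcual and post-synarcual. Effective sizes ran from 3042144 to 5753483. Log2 CPM used a prior count of 2. Each printed fold divides 2 scaled counts and carries an exact interval (SciPy 1.17.1). No replicates exist, the rule used every contrast, and no hypothesis test was run. The rule was also run on simulated counts with planted stage rises, no region effect and counting error only. Planted features were drawn from those with many counts. The simulation therefore does not cover members with few stage 28 counts, nor the spread between animals.

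Members and lists were chosen with earlier results of these data known. Features were named, at most 2 per direction, for the largest and smallest rise, the highest TPM at each stage, the most unequal rise between regions, the closest regions and the largest length changes. Abundance pairs and shared components were added after their values were seen. The planned marker lists were not applied, since identifiers have no gene names. Without strand, a feature and an antisense partner share reads. Alternatives were other scalings (DESeq2 1.42.0 size factors among them), TPM as log2(TPM + 0.5), other prior and minimum counts, and 1 region alone.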

Additional observations from a re-analysis of the deposited data

Results flagged for a closer look

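In 9 members the synarcual was lower than the post-synarcual at stage 28 and higher at stage 33, and in 4 the reverse held, with the counting intervals of both ratios clear of equality, against 3.03% and 6.21% of all features with the minimum count. What drew attention was the opposite direction of the region difference at the 2 stages. With 1 library per group this difference was not tested, and the rule keeps every such difference within 2-fold at each stage. Among the 9 is TRINITY_DN41139_c8_g1, with 58 and 98 counts at stage 28 and 4394 and 2818 at stage 33, and log2 region differences of -0.76 and 0.28. Among the 4 is TRINITY_DN35899_c0_g1, described above, with 0.94 and -0.68. Scaling to total counts raises every stage 33 region difference alike, so it bears on the 4 alone. By sign only, without the counting intervals, 3 of the 4 kept both directions. With total counts the stage 33 log2 difference was -0.21 for TRINITY_DN35899_c0_g1 but -0.02, next to equality, for TRINITY_DN42196_c0_g1. The reversal in the 4 therefore rests in part on the scaling.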

How the results depend on the processing

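All 178 members were higher at stage 33 in both regions under each scaling tried. Even so, the number that meets the rule depends on the scaling. For the same 178 the median mean log2 rise was 2.97 with TMM, 1.98 with total counts and 2.22 with TPM. A mean rise of at least 4-fold was kept by 88 with total counts and 103 with TPM. The smallest post-synarcual rise of the 178 was 0.147 log2 with total counts and 0.386 with TPM. The medians given next are those of members chosen anew with each scaling. Total counts gave 96 members, of which 76 were among the 178, with median log2 rises of 3.72 and 3.32 in the synarcual and post-synarcual, a median stage 33 region difference of 0.18, and a rise at least 2-fold larger in the synarcual in 22 members and in the post-synarcual in 4. TPM gave 110 members, 88 of them shared, with median log2 rises of 3.53 and 3.06 in the synarcual and post-synarcual. The median stage 33 region difference with TPM was 0.19, and 26 and 3 members had an unequal rise. These scalings moved the median rise of the 14668 features used for scaling to -0.73 and -1.25 (total counts, synarcual and post-synarcual) and to -0.39 and -1.01 (TPM), so a fixed limit of 4-fold stands at another height. DESeq2 size factors gave 182 members, upper-quartile factors 164, TMM without a filter 170 and a prior count of 0.5 174.

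A minimum count of 50 gave 327 members, with 24 and 25 of unequal rise in the synarcual and post-synarcual, and a minimum of 500 gave 98, with 4 in the synarcual. The rise of the synarcual alone gave 184 members and that of the post-synarcual alone 177, the latter with 4 members whose rise was larger in the synarcual. Alternatives chosen after seeing the data gave 61 members with region differences within 0.5 log2, 93 with a stage 28 counting interval inside 2-fold and 73 with both intervals inside it. A length change of at least 20% in both regions was found in 4 members. No paired analysis was possible because the groups share fewer than 2 replicate numbers and no result comes from a test. Depth limits the stage 28 region ratios of members with few counts there.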
